A study of Mus musculus with 6 samples.

Results

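Hepatic ammonia handling was examined through 10 genes in the livers of mice on a high-fat diet that received atractylodin or vehicle. The genes were chosen by gene symbol among the 23282 rows of the 6 count files. The periportal group held 7 of them, namely Nags, Cps1, Otc, Ass1, Asl and Arg1 of the urea cycle together with the glutaminase gene Gls2. The pericentral group held 3, the glutamine synthetase gene Glul, the ammonia transporter gene Rhbg and the glutamate transporter gene Slc1a2. All 10 were present, and all 10 passed the filter on low counts that left 12505 rows for testing.

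The animals were male C57BL/6N mice (the sample labels give C57BL/6) that were 8 weeks old when the diet began and ate it for 12 weeks. For the last 4 weeks, after 8 weeks of diet, they received either vehicle or atractylodin, a plant polyacetylene, by mouth at 10 mg/kg on 5 days per week. There were 3 liver libraries with vehicle and 3 with atractylodin, and every animal in both groups was on the high-fat diet, so no value here compares that diet with another. The libraries were made with QuantSeq, which reads the 3' end of each transcript. The labels number the libraries without saying that each came from its own animal, and the p-values therefore rest on the scatter of these 6 libraries, which may be technical.

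The liver disposes of ammonia by 2 routes that sit in different parts of the lobule. Hepatocytes near the portal vein hold the urea cycle, which joins ammonia to bicarbonate at the CPS1 step and releases urea at the arginase step, and they hold the liver-type glutaminase that frees ammonia from glutamine close to CPS1. A thin sheath of hepatocytes around the central vein takes up ammonia and glutamate that escaped the first route and turns them into glutamine. Expression of the genes of this sheath is known to depend on Wnt and beta-catenin signalling.

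Total counts were 1831461 in vehicle 1 and 9871762 to 12565393 in the other 5 libraries, and vehicle 1 was the shallowest. A count of 3 equalled 1.64 CPM in vehicle 1 and 0.239 to 0.304 CPM in the others. CPM is a gene's count relative to the size of its library, with sizes scaled by TMM except in these floors. The 10 members together took 0.399% to 0.443% of the counts of a library. Of 8 hepatocyte markers 7 were rows of the files and none of the 7 was called, with albumin (Alb) at 4.55% to 5.67% of counts and the marker sum at 92625 to 106432 CPM in the vehicle group and 93682 to 97477 CPM with atractylodin. The row for ribosomal RNA, Rn45s, took 4.14% to 5.41%.

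Slc1a2 was called higher and Rhbg lower with atractylodin, and the other 8 members did not pass the test. In edgeR's quasi-likelihood test with Benjamini-Hochberg adjustment over all 12505 rows, 2 of 10 members were therefore called at an adjusted p of 0.05, 1 higher and 1 lower. Neither call held throughout: that of Slc1a2 was lost in 7 of 15 other settings of the fit and that of Rhbg in 5. Among all tested rows 7.25% were called, 3.92% higher and 3.33% lower. Under scaling by total counts 312 rows were called higher and 707 lower, against 490 and 416 with TMM. The median log2 fold change of the 10 members was 0.14, against 0.00 over all tested rows, and it ranged from -0.91 for Rhbg to 0.36 for Slc1a2. The CPM of the 2 groups did not overlap for 2 of 10 members, Slc1a2 and Otc, where 26.2% of all tested rows did not overlap. In RNA of whole liver, fewer cells of a type and less RNA per cell cannot be told apart.

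**Figure D1:**
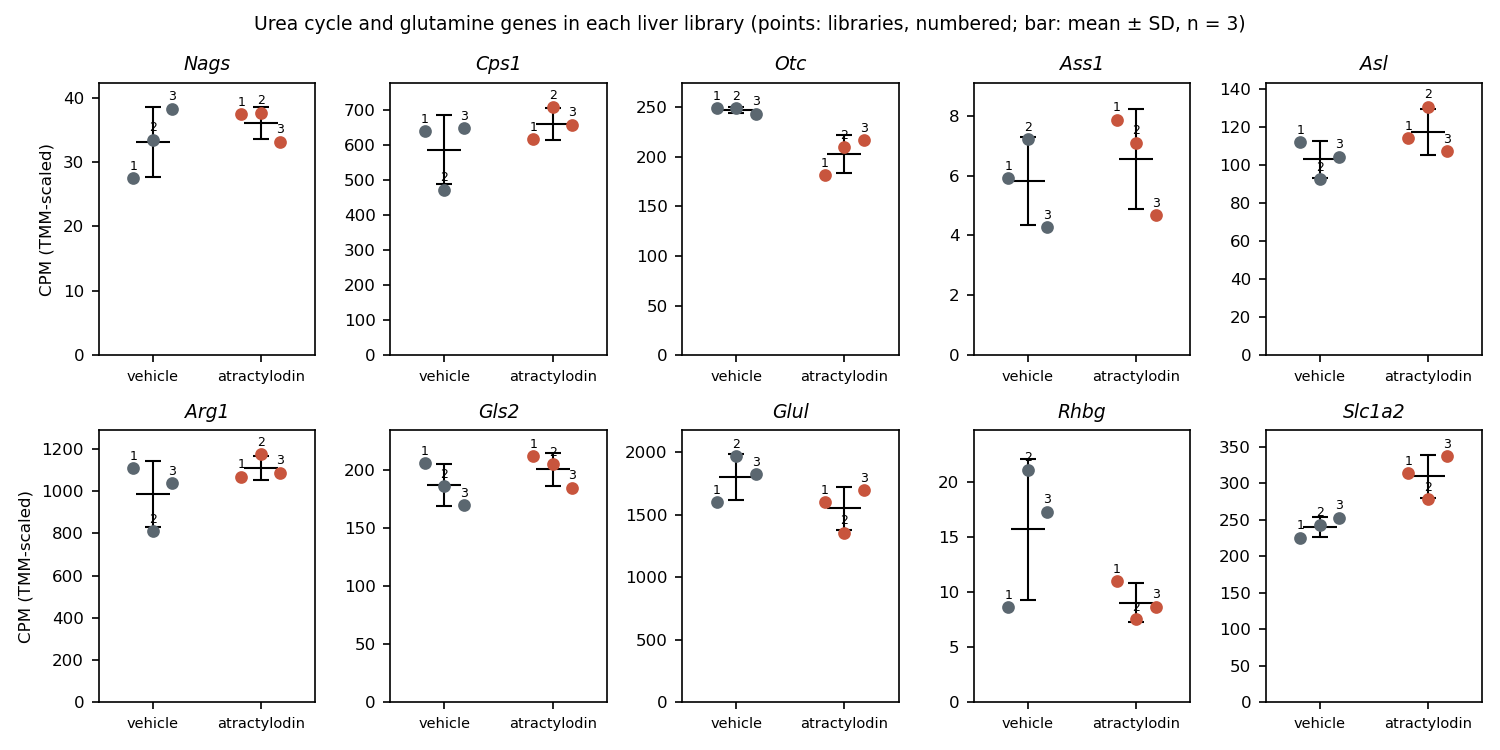
CPM of the 10 members in each library (points, numbered by replicate) with the mean and SD of 3 libraries per group; each vertical axis starts at 0 and has its own scale. Slc1a2 lay at 226 to 253 CPM in the vehicle group and 278 to 337 with atractylodin, Otc at 243 to 249 and 182 to 217, and the groups of the other 8 genes overlapped.

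Slc1a2 encodes the sodium-driven glutamate transporter GLT-1, which in liver brings glutamate into the pericentral cells that make glutamine (GRCm38 chromosome 2, 102658659 to 102790784, plus strand, 11 exons in the principal transcript). Its level was 226, 243 and 253 CPM in vehicle 1, 2 and 3 and 314, 278 and 337 CPM in atractylodin 1, 2 and 3. All 3 atractylodin libraries were above all 3 vehicle libraries. The mean was 240 ± 13.8 CPM in the vehicle group and 310 ± 29.4 CPM with atractylodin (SD, n = 3), 1.28-fold higher. On the log2 scale the rise was 0.36 ± 0.10 (SE, edgeR adjusted p = 0.0283). The call rested on all but 1 of the libraries: the adjusted p was 0.133, 0.0609 and 0.0722 without vehicle 1, 2 or 3, 0.0604 without atractylodin 1 and 0.101 without atractylodin 3. It was 0.0165 without atractylodin 2. Scaling by total counts gave 0.28 (adjusted p = 0.0927), and edgeR's likelihood ratio test an adjusted p of 0.0734.

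Rhbg encodes an ammonia channel of the Rh glycoprotein family that lies in the membrane of pericentral hepatocytes (chromosome 3, 88242874 to 88254709, minus strand). It was the member with the largest fitted change. Its level was 8.61, 21.1 and 17.3 CPM in vehicle 1, 2 and 3 and 11.0, 7.52 and 8.69 CPM in atractylodin 1, 2 and 3. Vehicle 2 and 3 were above every atractylodin library, but vehicle 1, with 16 counts and a 95% exact Poisson interval of 4.92 to 14.0 CPM, lay within the atractylodin range. The mean was 15.7 ± 6.41 CPM in the vehicle group and 9.05 ± 1.75 CPM with atractylodin (SD, n = 3), 1.88-fold lower in the fit. On the log2 scale the change was -0.91 ± 0.24 (SE, edgeR adjusted p = 0.0331). The adjusted p was 0.0103 without vehicle 1 (log2 fold change -1.08) and 0.0246 without atractylodin 1. The call was lost without vehicle 2 (adjusted p = 0.174), vehicle 3 (0.135), atractylodin 2 (0.106) or atractylodin 3 (0.0891). GENCODE places another gene model, Gm38392, over Rhbg on the same strand, with 1193 bases of its transcript 99.9% identical to that of Rhbg, and Gm38392 is not among the rows. That match covers bases 239 to 1431 of the Rhbg transcript. In the last 200 bases, toward which 3' libraries read, no other GENCODE gene matched Rhbg or Slc1a2 on either strand, at an identity of at least 95% over at least 100 bases.

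Glul encodes glutamine synthetase, the enzyme that joins ammonia to glutamate and the classical marker of the cells around the central vein (chromosome 1, 153899944 to 153909723, plus strand). It stood at 1602, 1968 and 1825 CPM in vehicle 1, 2 and 3 and at 1598, 1358 and 1695 CPM in atractylodin 1, 2 and 3. The ranges overlapped, with vehicle 1 between atractylodin 1 and 3. The fitted change was -0.21 ± 0.11 on the log2 scale (SE, edgeR adjusted p = 0.26), and over 15 other settings (tools, scalings, filters, a replicate block and libraries left out in turn) it ran from -0.30 to -0.12 with no call. By the same measure Glul was the only member whose 3' ends matched other GENCODE genes, 2 in number, AC134576.3 and the processed pseudogene Glns-ps1. Glns-ps1 matches 1126 aligned bases of the Glul transcript at 96.8% identity and is not among the rows.

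The 3 pericentral members thus gave estimates in both directions. Their counts can be set against each other inside a library, where the scaling of libraries cancels; these ratios were chosen after the values were seen and carry no test. The log2 ratio of Slc1a2 to Glul counts was -2.83, -3.02 and -2.85 in the vehicle libraries and -2.35, -2.29 and -2.33 in the atractylodin libraries. The groups did not overlap, and the means, -2.90 ± 0.10 and -2.32 ± 0.03 (SD, n = 3), differed by 0.58. The log2 ratio of Rhbg to Slc1a2 was -4.71, -3.52 and -3.87 in the vehicle libraries and -4.84, -5.21 and -5.28 in the atractylodin libraries. The means were -4.03 ± 0.61 and -5.11 ± 0.24, and the groups again did not overlap. Vehicle 1 lay close to atractylodin 1, a gap small beside the counting error of the 16 Rhbg counts in vehicle 1.

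**Figure D2:**
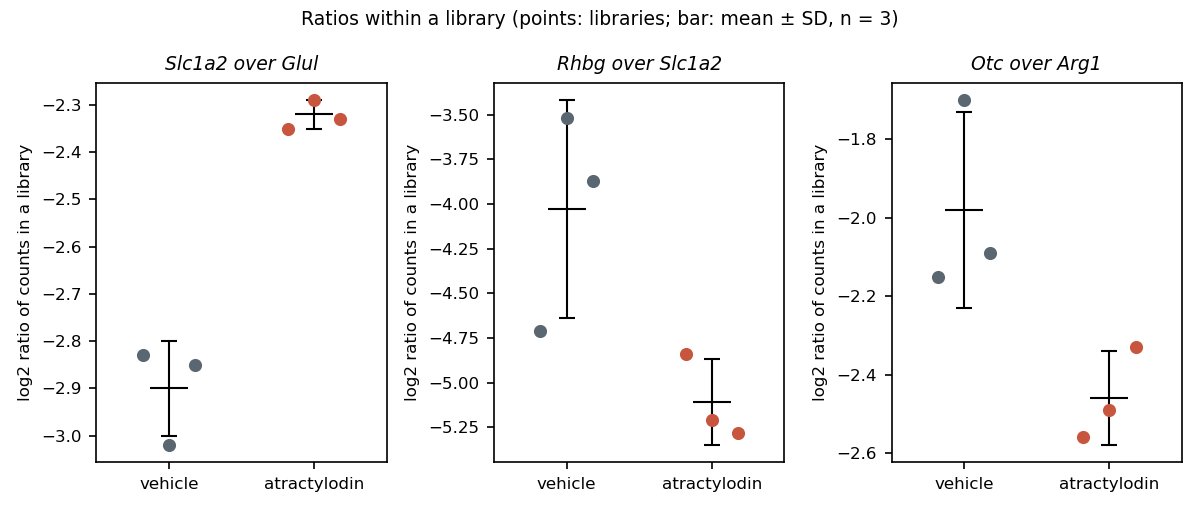
Log2 ratios of raw counts of 2 members inside each library (points), with the mean and SD of 3 libraries per group; the vertical axes do not start at 0. The ratio of Slc1a2 to Glul was higher in all 3 atractylodin libraries, and those of Rhbg to Slc1a2 and of Otc to Arg1 were lower. For Rhbg to Slc1a2, vehicle 1 (-4.71) lay close to atractylodin 1 (-4.84).

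None of the 7 periportal members passed the test, and 6 of the 7 had estimates above 0, as had 6231 of all 12505 tested rows. The 7 members had a median log2 fold change of 0.17 and a range of -0.29 to 0.20. Among the 6 members above 0 is the Ass1 row, whose counts cannot be separated from those of a pseudogene and whose estimate was -0.11 with both rows summed. The row with an estimate below 0 was Otc, which encodes ornithine transcarbamylase, the mitochondrial enzyme that makes citrulline (chromosome X, 10252305 to 10321024, plus strand, 10 exons). It stood at 249, 249 and 243 CPM in vehicle 1, 2 and 3 and at 182, 210 and 217 CPM in atractylodin 1, 2 and 3. The vehicle libraries lay close together and all 3 atractylodin libraries lay below them. The mean was 247 ± 3.4 CPM in the vehicle group and 203 ± 18.7 CPM with atractylodin (SD, n = 3). The log2 difference was -0.29 ± 0.09 (SE), with an unadjusted p of 0.00676 and an edgeR adjusted p of 0.0735. Scaling by total counts gave -0.37 with an adjusted p of 0.0204, and Otc was called in that setting alone of the 15 other settings run. The value was -0.21 without atractylodin 1, the lowest library.

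Slc1a2 and Otc were the 2 of 10 members whose groups did not overlap, where 26.2% of all tested rows did not, and Otc was not called. The 250 bases before their RefSeq start sites (GRCm38.p6, plus strand, 5′ to 3′) are shown for that reason alone. Of the 10 members 5 had an entry in the promoter table: Glul, Ass1, Slc1a2, Nags and Otc. Capitals mark matches on either strand to CTTTGA, a core of the TCF/LEF site of Wnt signalling, or to TTNNGNAA, a loose C/EBP site; no other motif searched was found in these windows.
Slc1a2, chr2:102706188-102706437: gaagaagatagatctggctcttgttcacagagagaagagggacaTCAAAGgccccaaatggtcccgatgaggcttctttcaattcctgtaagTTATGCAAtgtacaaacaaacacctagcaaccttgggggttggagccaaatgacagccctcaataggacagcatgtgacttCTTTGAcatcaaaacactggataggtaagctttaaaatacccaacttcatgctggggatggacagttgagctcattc
Otc, chrX:10252055-10252304: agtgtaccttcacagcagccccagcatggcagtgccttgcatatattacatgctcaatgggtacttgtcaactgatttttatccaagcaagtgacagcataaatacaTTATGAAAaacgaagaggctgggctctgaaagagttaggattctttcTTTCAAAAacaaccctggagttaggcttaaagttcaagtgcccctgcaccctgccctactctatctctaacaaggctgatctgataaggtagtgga

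The Slc1a2 window held 2 matches to CTTTGA, 206 and 77 bases before the start, and 1 match to TTNNGNAA 158 bases before it. The Otc window held 2 matches to TTNNGNAA, 143 and 96 bases before the start, and none to CTTTGA. The Nags window also held both motifs, CTTTGA 203 and TTNNGNAA 231 bases before the start, and those of Glul and Ass1 held none of the motifs searched. Of 32851 promoter windows of 250 bases, 13.8% held CTTTGA and 36.8% held TTNNGNAA on either strand. The other motifs searched were TGNACTTTG for HNF4 (1.19% of windows), TGACG for the core of the CRE site (17.8%) and TATAAA (12.4%). The RefSeq start of Slc1a2 lies 47779 bases inside the gene as GENCODE draws it from its principal transcript, and 3' counts do not show which start a transcript used.

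Cps1 and Arg1, the entry and the exit of the cycle, both had estimates of 0.17 that rested on vehicle 2. Cps1 encodes carbamoyl phosphate synthetase, the entry step (chromosome 1, 67123026 to 67231259, 38 exons). It stood at 639, 472 and 648 CPM in the vehicle group and 617, 707 and 658 CPM with atractylodin, where vehicle 2 was the low library and the other 5 overlapped (log2 fold change 0.17 ± 0.12, edgeR adjusted p = 0.418). Arg1 encodes arginase, the step that releases urea (chromosome 10, 24915221 to 24927484). It showed the same shape, with 1110.0, 810.0 and 1038 CPM against 1068, 1175 and 1088 CPM (0.17 ± 0.11, adjusted p = 0.399). Without vehicle 2 the estimates were 0.04 for Cps1 and 0.05 for Arg1.

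Asl, for argininosuccinate lyase (chromosome 5, 130011258 to 130029247), stood at 92.5 to 112 CPM in the vehicle group and 107 to 131 CPM with atractylodin (0.20 ± 0.10, adjusted p = 0.285). Vehicle 2 was again the lowest library for Asl, and the estimate was 0.13 without it. Nags encodes the synthase of N-acetylglutamate, the activator that CPS1 needs (chromosome 11, 102145513 to 102149477). It stood at 27.5, 33.5 and 38.3 CPM against 37.5, 37.7 and 33.2 CPM (0.09 ± 0.13, adjusted p = 0.768), with the lowest value in vehicle 1. Gls2, the liver-type glutaminase (chromosome 10, 128194457 to 128210004), stood at 169 to 206 CPM in the vehicle group and 185 to 212 CPM with atractylodin (0.11 ± 0.10, adjusted p = 0.579).

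Otc can be set against other steps of the cycle inside a library. The log2 ratio of Otc to Arg1 counts inside a library was -1.98 ± 0.25 with vehicle and -2.46 ± 0.12 with atractylodin (SD, n = 3), and that of Otc to Cps1 was -1.23 ± 0.27 and -1.71 ± 0.09. Neither of these ratios overlapped between the groups, and the difference was -0.47 for both. Vehicle 2, the low library for Arg1 and Cps1, had the highest value of both ratios. Otc to Arg1 was -1.70 in vehicle 2 and -2.15 and -2.09 in vehicle 1 and 3. Otc to Cps1 was -0.92 in vehicle 2 and -1.36 and -1.41 in vehicle 1 and 3. The ratio that sets the glutamine route against the urea cycle, Glul to Cps1, did overlap, at 1.33, 2.06 and 1.49 in the vehicle libraries and 1.37, 0.94 and 1.37 in the atractylodin libraries. In all 5 such ratios were computed, each chosen after the values were seen and none tested.

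**Figure D3:**
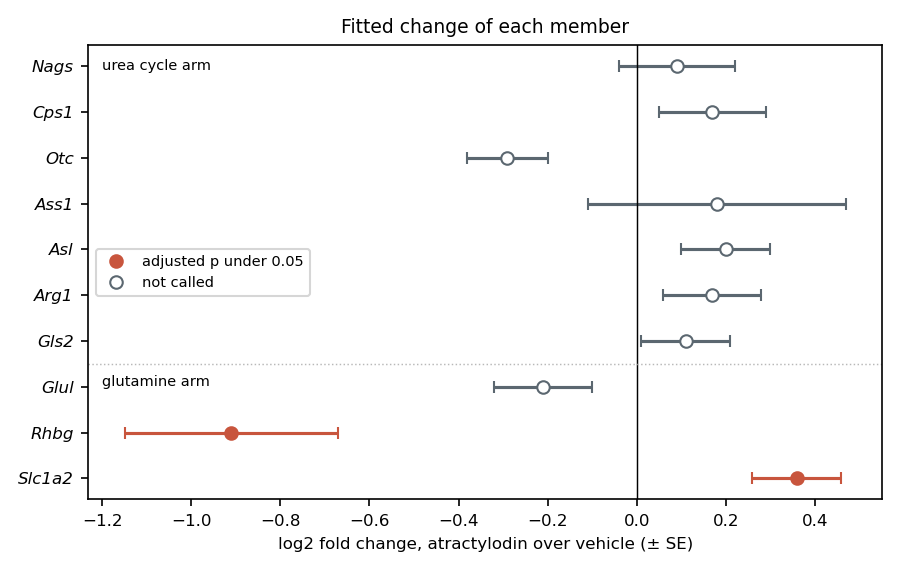
Log2 fold change of each member with its SE from edgeR's quasi-likelihood fit; filled points passed an adjusted p of 0.05. Rhbg (-0.91) and Slc1a2 (0.36) are filled, and Otc (-0.29) lies on the negative side. The point of Ass1 (0.18) is that of its row alone, and the sum with its pseudogene Gm5424 was -0.11.

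Ass1, for argininosuccinate synthetase, the step after citrulline (chromosome 2, 31470207 to 31520672, 16 exons), is known as an abundant liver enzyme but had only 11 to 84 counts in a library. Its level was 5.92, 7.21 and 4.28 CPM in the vehicle group and 7.87, 7.10 and 4.68 CPM with atractylodin, and the groups overlapped (0.18 ± 0.29, edgeR adjusted p = 0.778). A processed pseudogene of Ass1, Gm5424 on chromosome 10, is a row of its own, and its counts were much higher. GENCODE gives it 62071123 to 62072362 and RefSeq 62071022 to 62072571, so the RefSeq model is longer on both sides, by 209 bases at the higher coordinate. The search of 3' ends used the GENCODE models alone. The GENCODE transcript of Gm5424 aligns to 1240 bases of the Ass1 transcript with 6 mismatches and no gap, 99.5% identity. The 150-base stretch of the Ass1 coding sequence with the most mismatches, transcript bases 576 to 725, is shown with its counterpart, bases 374 to 523 of Gm5424, with capitals at the 3 bases that differ.
Ass1: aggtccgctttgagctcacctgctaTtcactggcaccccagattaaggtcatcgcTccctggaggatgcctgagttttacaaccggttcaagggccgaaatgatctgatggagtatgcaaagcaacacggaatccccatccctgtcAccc
Gm5424: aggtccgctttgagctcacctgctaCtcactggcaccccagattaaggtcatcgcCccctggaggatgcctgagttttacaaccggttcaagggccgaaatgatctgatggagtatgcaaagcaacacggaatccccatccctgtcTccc

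The row Gm5424, singled out after its values were seen, stood at 358, 279 and 307 CPM in the vehicle group and 241, 326 and 301 CPM with atractylodin. The Ass1 row held 1.38% to 3.17% of the counts of the pair in every library. With the 2 rows added together the pair stood at 321 ± 39.5 CPM in the vehicle group and 296 ± 43.0 CPM with atractylodin (SD, n = 3). The log2 fold change of the sum was -0.11 ± 0.12 (SE, edgeR adjusted p = 0.634), of the opposite sign to the Ass1 row alone, and the groups overlapped. Which of the 2 loci a counted read came from cannot be told apart from these tables, so the Ass1 row gives no separate measure of the synthetase. The Ass1 row alone ran from -0.06 without vehicle 3 to 0.46 without vehicle 2.

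**Figure D4:**
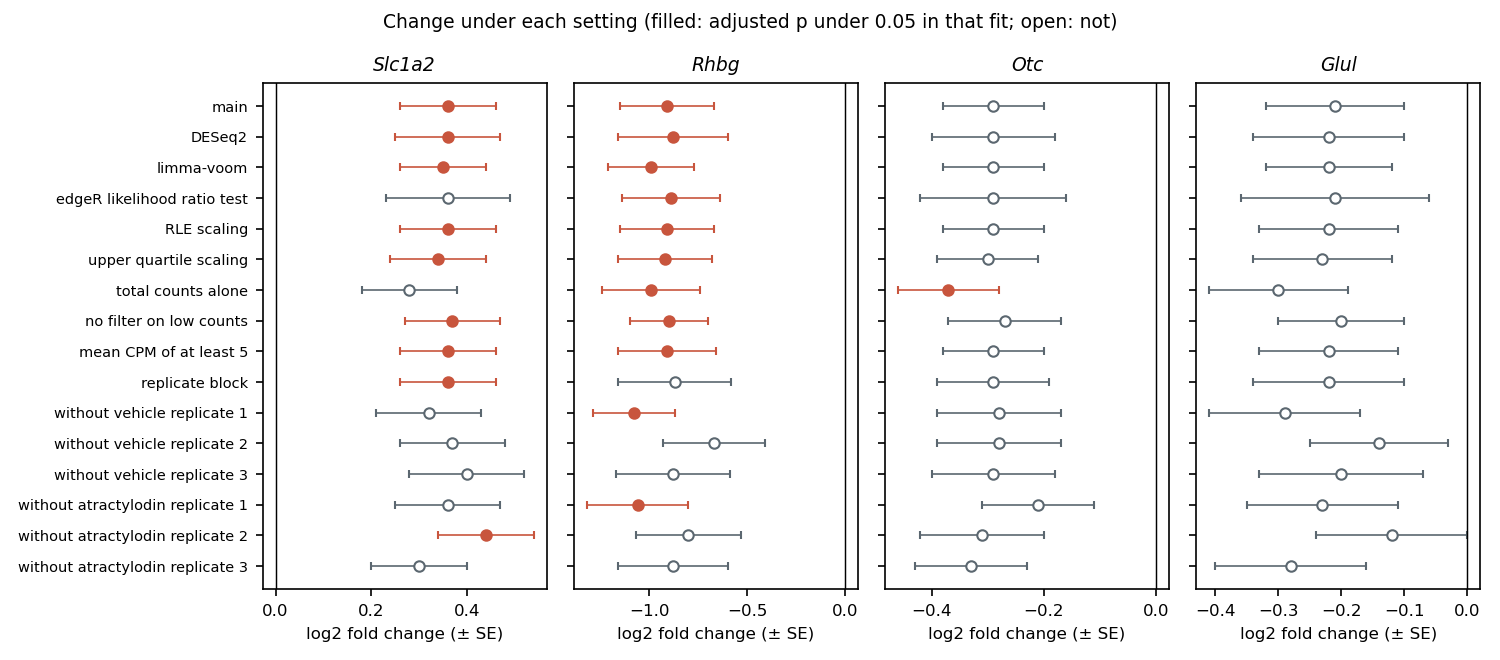
Log2 fold change with SE of Slc1a2, Rhbg, Otc and Glul in the fit as planned and under 15 other settings (rows); filled points passed an adjusted p of 0.05 in that fit. All points of a gene lie on the same side of 0, while the call of Slc1a2 was lost in 7 settings and that of Rhbg in 5.

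Genes around the members were taken from 6 lists covering 95 genes, of which 87 were tested; 8 were called higher and 9 lower, 19.5% of those tested, against 7.25% of all tested rows. The lists were chosen with earlier results of these data known, so the higher share is a description of them. Among 18 tested enzymes that move nitrogen between amino acids, 1 was called, and the median log2 fold change was -0.05. It was Asns, the glutamine-using asparagine synthetase, at 0.538, 0.515 and 0.162 CPM in the vehicle group and 1.89, 1.78 and 1.92 CPM with atractylodin (2.35 ± 0.64, edgeR adjusted p = 0.0308). The vehicle values lie near or under the level of 3 counts, and the call was lost when any 1 of the 6 libraries was left out (adjusted p 0.0537 to 0.185). Glud1, the glutamate dehydrogenase that frees ammonia in mitochondria, was named after its values were seen and stood at 1098 to 1207 CPM in the vehicle group and 976 to 1080 CPM with atractylodin (-0.15 ± 0.09, adjusted p = 0.399).

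Of 14 tested transporters of the amino acids and products of these routes, 2 rose and 1 fell (median -0.10). Slc7a2 encodes CAT2, the carrier of arginine, ornithine and lysine into hepatocytes. It rose from 324, 333 and 345 CPM to 574, 487 and 435 CPM, 1.49-fold (0.58 ± 0.10, edgeR adjusted p = 0.00242), and was called in each of the 15 other settings. Slc38a4, a sodium-coupled carrier of neutral amino acids, stood at 626 to 818 CPM in the vehicle group and 897 to 1061 CPM with atractylodin (0.37 ± 0.11, adjusted p = 0.0496), a call lost in 11 of those settings, 5 of them leaving out vehicle 1, 2 or 3 or atractylodin 2 or 3 (adjusted p 0.0808 to 0.179). Slc25a22, the mitochondrial glutamate carrier, fell from 210 ± 18.2 to 162 ± 14.9 CPM (SD, n = 3; -0.38 ± 0.10, adjusted p = 0.0264), a call lost without vehicle 1 (0.11), vehicle 3 (0.152) or atractylodin 3 (0.103) and under edgeR's likelihood ratio test (0.0587).

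None of the 5 genes that supply bicarbonate to CPS1 or act on CPS1 and glutamate dehydrogenase in mitochondria was called by edgeR, and none had an unadjusted p under 0.05. The smallest p was that of Sirt4, a sirtuin that restrains glutamate dehydrogenase, at 6.53 ± 2.29 and 4.17 ± 1.62 CPM (SD, n = 3; adjusted p = 0.401). DESeq2 and limma-voom called none of the 5 either.

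Of 14 receptors and transcription factors known to act on urea cycle genes, 3 rose and none fell (median 0.16). Hnf4a, the nuclear receptor of hepatocyte identity, rose from 321, 270 and 291 CPM to 462, 439 and 533 CPM, 1.63-fold (0.71 ± 0.10, edgeR adjusted p = 0.000405). Every atractylodin library was above every vehicle library, and the call held in each of the 15 other settings. Foxo1, a factor that insulin restrains, rose 1.59-fold (0.67 ± 0.13, adjusted p = 0.00676). Klf15, a regulator of amino acid breakdown, was at 56.9 ± 5.35 CPM with vehicle and rose to 78.4 ± 7.55 CPM (SD, n = 3; 0.44 ± 0.11, adjusted p = 0.0177), a call lost without vehicle 1 (0.0799), vehicle 3 (0.0802) or atractylodin 3 (0.0715) and under scaling by total counts (0.055).

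Calls among the other periportal genes went in both directions. Of 14 tested, 1 rose and 4 fell (median -0.15). Pck1, the gluconeogenic enzyme PEPCK, was at 1145 ± 301 CPM with vehicle and rose to 3644 ± 305 CPM (SD, n = 3; 1.67 ± 0.19, edgeR adjusted p = 0.00247). Gldc, the decarboxylase of the glycine cleavage system, which itself releases ammonia, fell from 51.9 ± 6.47 to 25.8 ± 3.93 CPM (-1.01 ± 0.14, adjusted p = 0.000288). Uroc1, an enzyme of histidine breakdown, fell from 237 ± 23.3 to 160 ± 14.6 CPM (-0.56 ± 0.10, adjusted p = 0.00232).

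Of 24 tested pericentral genes, 1 rose and 4 fell (median -0.22). Lect2 fell from 170 ± 15.9 to 113 ± 15.1 CPM (SD, n = 3; -0.60 ± 0.11, edgeR adjusted p = 0.00257). Lgr5, the R-spondin receptor of the innermost cells, fell from 8.74 ± 1.55 to 4.16 ± 1.02 CPM (-1.09 ± 0.27, adjusted p = 0.0177), a call lost without vehicle 3 (0.157) or atractylodin 2 (0.0651). Gulo, the last enzyme of ascorbate synthesis, fell from 832 ± 89.7 to 638 ± 64.6 CPM (-0.39 ± 0.11, adjusted p = 0.0322), a call lost without vehicle 2 (0.125), vehicle 3 (0.128), atractylodin 1 (0.117) or atractylodin 3 (0.0942) and under edgeR's likelihood ratio test (0.0764). The gene that rose, named after its values were seen, was Cyp1a2, a cytochrome P450 of xenobiotic metabolism, at 179 ± 36.7 and 287 ± 45.6 CPM (0.67 ± 0.16, adjusted p = 0.0356). Its call was lost without vehicle 1 (0.0915), vehicle 3 (0.117), atractylodin 2 (0.12) or atractylodin 3 (0.093) and under scaling by total counts (0.0517). Estimates were above 0 for 9 of the 24 genes and below 0 for 15, so the list held genes on the side of Slc1a2 and genes on the side of Rhbg.

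**Figure D5:**
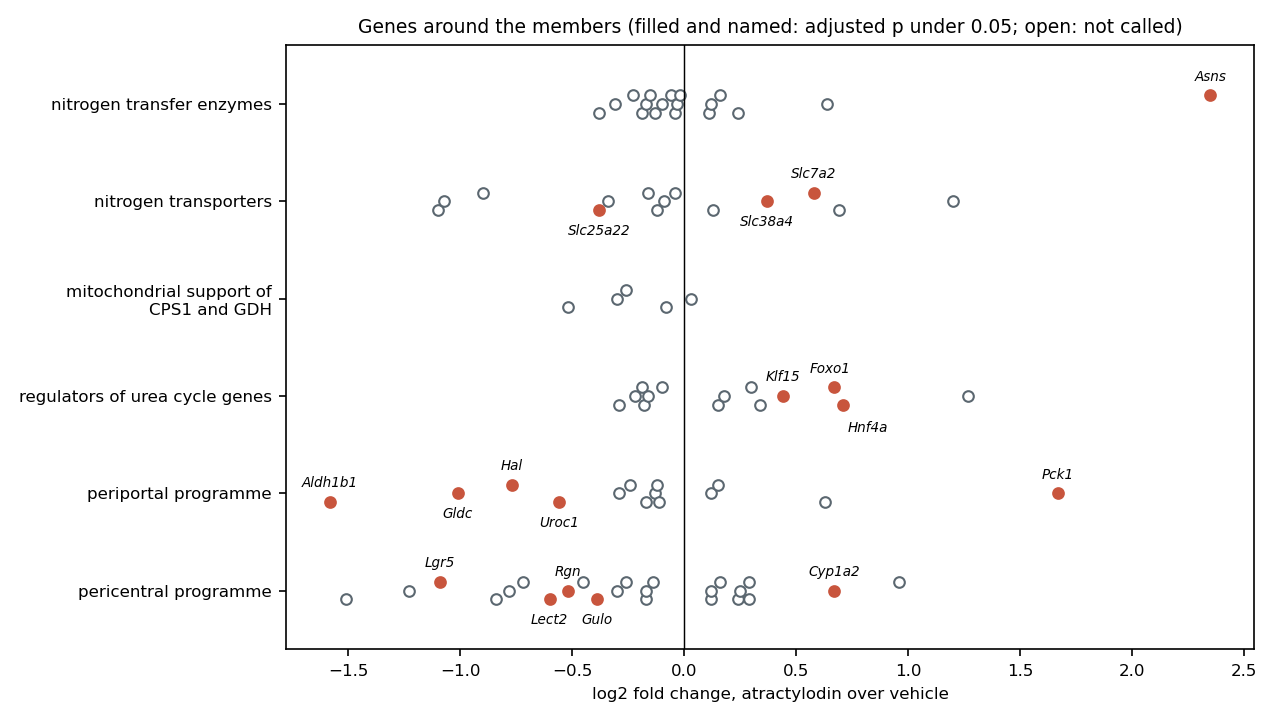
Log2 fold change of each tested gene of the 6 surrounding lists (points, spread vertically for legibility); filled and named points passed an adjusted p of 0.05, 8 to the right and 9 to the left of 0. Asns lies farthest right at 2.35, with vehicle values near or under the level of 3 counts.

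Markers of other cells were measured beside these genes, and their part in the member results was not tested. For Arg1, which alternatively activated macrophages also express, the 15 macrophage markers summed to 422 to 598 CPM in the vehicle group and 357 to 513 CPM with atractylodin. None of 13 tested was called. On that list Retnla was at 0 in every vehicle library, and Chil3 reached 1.29 CPM in vehicle 2. Mrc1 stood at 39.3 to 49.8 CPM in the vehicle group and 36.8 to 42.2 CPM with atractylodin. Endothelial markers, the source of Wnt signals to the pericentral cells, summed to 357 to 388 and 343 to 364 CPM, with 1 higher and 1 lower of 13 tested. Cholangiocyte markers summed to 48.3 to 63.0 and 25.9 to 30.9 CPM, without overlap, and 2 of 4 tested fell, among them Sox9. Stellate cell markers summed to 381 to 467 and 318 to 437 CPM with none called, adipocyte markers to 28.4 to 78.6 and 23.6 to 34.4 CPM with Adipoq at 0 in every library, and erythroid markers to 1819 to 2324 and 1465 to 2858 CPM with 1 lower of 5. The most abundant marker of these lists was Cd5l for macrophages, Kdr for endothelium, Sox9 for cholangiocytes, Dcn for stellate cells, Fabp4 for adipocytes and Hba-a1 for erythroid cells. Lymphocyte markers (led by Cd3g) reached at most 3.31 CPM and neutrophil markers (led by S100a8) 23.0 CPM in any library. Pancreatic acinar markers, led by Cela2a, summed to at most 0.687 CPM in the vehicle group and to 14.7 CPM in atractylodin 1.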

How the data were processed

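Liver RNA from 3 vehicle and 3 atractylodin samples was extracted with Trizol and made into Lexogen QuantSeq libraries, per the labels' protocols. Raw counts per gene symbol, as deposited by the authors, came in 1 file per library. Bowtie2, bedtools and mm10 are named in the submitters' processing notes, without versions or roles; the annotation, strand setting and treatment of reads that fit several loci are not given in the sources used here. Counts of near-identical copies and of overlapping genes may therefore be split between rows. The use of molecular identifiers is not given either, so intervals and floors cover counting error only.

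Each file had 23282 rows in the same order, 44 of them repeating a symbol (none a gene named here). The chi-square statistic per degree of freedom was at least 2.75 for every pair of libraries, so none was treated as a copy. Rows were filtered with filterByExpr, scaled by TMM and tested with edgeR's quasi-likelihood method, robust option on, in edgeR 4.0.16 (R 4.3.3), with Benjamini-Hochberg adjustment over 12505 rows and a threshold of 0.05. SE was derived from each log2 fold change and the square root of its F statistic. In a test on simulated counts of 12505 genes with the depths of these libraries, the fit recovered 62 of 100 genes set to a 2-fold change and 29 of 100 set to 1.5-fold, and 12 of its 103 calls were false. That is a larger share of false calls than the threshold of 0.05 aims for. Most 1.5-fold changes were missed, so a gene that was not called is not shown to be unchanged.

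The members and lists were chosen with earlier results of these data known. Named genes were all members, up to 3 called genes of each surrounding list in order of p (otherwise the 1 with the smallest p), and the most abundant gene of each marker list; 6 surrounding lists and 10 marker lists were used. Other settings were DESeq2 1.42.0, limma-voom (limma 3.58.1), edgeR's likelihood ratio test, RLE, upper quartile and total-count scaling, no filter, a filter at a mean of 5 CPM, a replicate block, and each library left out in turn. The sum of Ass1 and Gm5424 was chosen after seeing the data. Positions and transcripts are from GENCODE M21 (GRCm38, the build also called mm10), and promoters from RefSeq (GRCm38.p6). Copies of the principal transcripts were sought with blastn 2.17.0 at an identity of at least 95% over at least 100 bases. Figures were drawn with matplotlib 3.10.9.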

Additional observations from a re-analysis of the deposited data

How the results depend on the processing

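The count of called members, 2, became 1 with edgeR's likelihood ratio test and 1 with the replicate block, and 0 to 1 when a library was left out (0 without vehicle 2, vehicle 3 or atractylodin 3). All called rows, 906, ranged from 467 (without vehicle 3; 494 without vehicle 1) to 751 over those leave-outs, and called genes of the surrounding lists, 17, from 10 (without vehicle 3; 11 without vehicle 1) to 17. Without a filter the latter count was 26, with more genes tested. No member changed sign except Ass1, at -0.06 without vehicle 3 (0.46 without vehicle 2) and -0.11 summed with Gm5424. With the replicate block Rhbg lost its call (-0.87 ± 0.29, adjusted p = 0.119), Slc1a2 kept it (0.0398), Asns lost its call (0.0558) and 811 rows were called. Same-numbered libraries did not deviate together (correlations of -0.04, -0.10 and 0.04), so the numbers were not taken as pairs. Total-count scaling moved the median of all rows by -0.09, lost the call of Slc1a2 and gained that of Otc. The depth of vehicle 1 limits members of a few CPM, Rhbg and Ass1.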

Other observations

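Among 5894 tested genes outside the members, all averaging 4 or more in log2 CPM, those whose log2 CPM followed Glul most closely over the 6 libraries were Slc13a3 (Pearson r = 0.976), a dicarboxylate carrier that is also on the pericentral list, and Slc35c2 (0.967). Slc13a3 stood at 16.7, 26.4 and 21.1 CPM with vehicle and 14.7, 7.31 and 18.2 CPM with atractylodin, so vehicle 2 was highest and atractylodin 2 lowest for it as for Glul. The closest to Cps1 were Rpl28 (0.978) and Hacd3 (0.971), and to Gls2 Polr1c (0.988) and Ttc17 (0.982). Between 4 and 7 genes exceeded 0.95 for each of these members. Over 6 libraries, that few of 5894 unrelated genes can exceed 0.95 by chance alone, and this was not tested. These are descriptions over 6 libraries that share the 2 groups, and none of the 6 genes was called by edgeR (adjusted p from 0.186 to 0.637).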
